A study of Homo sapiens with 6 samples.

Results

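The genes described here are the cancer-testis antigen families of HEK 293T cells. They were chosen by symbol: a name that begins with MAGEA, MAGEB, MAGEC, GAGE, PAGE, XAGE, SSX, CT45A, CT47, CTAG, CSAG or SPANX followed directly by a digit, or SAGE1, with a count above 0 in at least 1 library. The rule found 21 of 30270 genes: 10 CT45A genes (1 of them, CT45A11P, a pseudogene), 6 MAGEA genes, 2 MAGEB genes, MAGEC2, SAGE1 and SSX2IP. The other family names gave no member under the rule. Chromosome X carries 20 of the 21. The last, SSX2IP on chromosome 1, matches by name only: it encodes a centrosome protein named for binding SSX2 and is not a cancer-testis antigen, so it is given apart from the 20 antigens.

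RNA was sequenced from 3 libraries of wild-type (WT) HEK 293T cells and 3 libraries labelled as a TENT3A/B double knockout, called ΔTUT4/7 after the study's name for these enzymes. HEK 293T is an immortalized human embryonic kidney line that carries the SV40 large T antigen, and neither group was treated. TUT4 and TUT7 (TENT3A and TENT3B) add uridines to RNA 3′ ends, and the study asked how the transcriptome changes without them. The WT cells came from a cell bank and the knockout cells, which had been made earlier, from another laboratory. Which HEK 293T stock was the parent of the knockout cells, and whether these are 1 clone, is not given in the sources used here, so the deletion and other differences between the stocks cannot be told apart. The libraries of a group are biological replicates of 1 line, and p-values measure the spread between these libraries only.

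Cancer-testis antigens are proteins made mainly in male germ cells and placenta among normal tissues and again in many tumours, where T cells can recognize them. Many are encoded on chromosome X in families of near-identical copies produced by gene duplication. In most somatic cells their promoters are methylated and the genes are silent, and loss of promoter methylation is the best known route to their expression in tumours. MAGE proteins share a MAGE homology domain through which they bind RING-type ubiquitin ligases. Less is known of the CT45A and SAGE1 proteins.

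Library totals ran from 18757228 to 33148937 counts. The targeted genes were read first, as a check of the labels. TUT4 counts were higher under the knockout label, at 211 ± 5.08 CPM (SD, n = 3) in WT and 906 ± 21.4 CPM in ΔTUT4/7. TUT7 was lower there, at 62.6 ± 2.17 CPM in WT against 26.3 ± 1.04 CPM. Gene-level counts cannot show whether the deletion is in place, so these values neither bear out nor refute the label. Every direction below therefore rests on the label. CPM values here are relative to TMM-scaled library sizes. Of 10 markers of the line, 5 were higher and 5 lower in ΔTUT4/7 at FDR under 0.05. The neurofilament gene NEFM, among the most abundant of these markers in WT, stood at 969 ± 123 CPM there and at 0.0170 ± 0.0295 CPM in ΔTUT4/7. Of the markers that were higher, VIM was the most abundant and rose from 496 ± 22.9 to 1250 ± 5.78 CPM. INA had the largest rise, from 2.34 ± 0.0939 to 31.4 ± 1.24 CPM. Differences were tested with edgeR's quasi-likelihood test on the estimated counts, with Benjamini-Hochberg adjustment (FDR) over 23952 genes, and adjusted p-values below come from that test.

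The start regions of several antigens are shown because the families reported here are known to be controlled at their promoters. RefSeq (build GRCh38.p14) gave windows for 12 of the 21 members, and the 250 bases before the start are printed with each CG, the dinucleotide that can be methylated, in capitals. SAGE1 (chrX:135893466-135893715, plus strand) is shown since its window shares 229 bases, on the opposite strand, with the window before an upstream start of CT45A10. CT45A1 (chrX:135713389-135713638, plus strand) stands for the CT45A copies, MAGEB2 (chrX:30215313-30215562, plus strand) and MAGEC2 (chrX:142205291-142205540, minus strand) for MAGE genes whose own transcripts share no 76-base window with another gene.
SAGE1: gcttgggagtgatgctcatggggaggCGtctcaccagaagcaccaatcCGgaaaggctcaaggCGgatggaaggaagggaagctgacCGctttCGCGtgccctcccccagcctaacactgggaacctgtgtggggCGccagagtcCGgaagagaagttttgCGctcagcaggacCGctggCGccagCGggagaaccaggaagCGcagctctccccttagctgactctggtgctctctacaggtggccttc
CT45A1: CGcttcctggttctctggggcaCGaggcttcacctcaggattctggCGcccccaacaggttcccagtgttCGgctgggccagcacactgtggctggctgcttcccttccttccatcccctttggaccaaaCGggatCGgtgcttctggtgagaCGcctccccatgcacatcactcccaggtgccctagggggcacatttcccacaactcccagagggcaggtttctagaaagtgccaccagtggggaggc
MAGEB2: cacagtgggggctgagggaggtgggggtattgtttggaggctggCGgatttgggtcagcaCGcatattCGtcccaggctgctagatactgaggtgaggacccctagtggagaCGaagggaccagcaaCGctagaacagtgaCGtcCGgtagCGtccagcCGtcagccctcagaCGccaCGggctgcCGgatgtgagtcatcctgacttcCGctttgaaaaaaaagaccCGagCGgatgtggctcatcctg
MAGEC2: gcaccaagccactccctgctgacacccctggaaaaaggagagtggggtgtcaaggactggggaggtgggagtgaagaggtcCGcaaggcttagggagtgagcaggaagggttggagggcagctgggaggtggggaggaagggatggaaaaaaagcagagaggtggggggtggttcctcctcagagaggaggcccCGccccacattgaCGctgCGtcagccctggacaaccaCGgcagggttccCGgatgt

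These windows held 13, 7, 15 and 6 CG dinucleotides, respectively. Over the 13 windows of 11 antigens the number ran from 6 to 16, beside a median of 11 and quartiles of 3 and 23 over 35116 windows in the table. The observed over expected CG ratio ran from 0.272 to 0.703 in antigen windows, beside a median of 0.558 over the table. The letters CGGAAG, which contain the core bound by many ETS transcription factors, were found on either strand in 3 of the 13 antigen windows, against 16.5% of the table. The letters CGGATG, which cannot match at the same position as CGGAAG and were looked for only after the sequences had been seen, were found in 10 of the 13, against 5.27% of the table. The antigen windows share sequence within a family, 2 genes have 2 windows each, and a match is a description of letters and not a binding site. DNA methylation was not measured.

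In WT cells the antigens were low and their sum varied by 11.0% (coefficient of variation) between libraries, while in ΔTUT4/7 nearly none of their counts were left. Summed over 20 antigens, the level was 58.1, 72.3 and 67.6 CPM in the WT libraries and 0.506, 0.567 and 0.153 CPM in the ΔTUT4/7 libraries. The groups were far apart, with 66.0 ± 7.23 CPM (SD, n = 3) against 0.409 ± 0.223 CPM. On the log2 scale the sum changed by -7.28 ± 0.17 (SE), and its adjusted p was 1.09e-13. In counts, 5094 in WT stood against 30 in ΔTUT4/7, a scaled ratio of 158 with an exact 95% interval of 111 to 234 that covers counting error only. In bulk RNA, fewer cells that express a gene and less RNA per cell cannot be told apart.

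Gene by gene, 11 of the 21 members were called lower in ΔTUT4/7 at FDR under 0.05 and 2-fold or more, and 0 were called higher. Over all genes tested, 12.4% were called lower and 5.9% higher on the same rule. At FDR under 0.05 whatever the size, 12 members were lower and 0 higher, while 29.0% of all tested genes were lower, 28.6% higher and 57.7% changed in either direction. The count rests on the 13 members that passed the filter on low counts (a largest count over 12). Of these, 12 passed it through their WT counts alone, so that the filter itself favoured lower values in ΔTUT4/7 among them. The other is SSX2IP. The median log2 fold change over the tested members, -8.27, is therefore given only as a description. Over all tested genes it was -0.02, and over the other 830 tested genes of chromosome X it was 0.10, with 11.2% called lower and 11.1% higher at 2-fold. The antigens that were not tested were CT45A3, CT45A11P, MAGEA2B, MAGEA8, MAGEA9B, MAGEB2, MAGEB17 and MAGEC2.

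Without the filter on low counts, 19 of 21 members had every ΔTUT4/7 library below every WT library, and 28.7% of all genes in the table did so. The groups overlapped for the other 2, CT45A11P and MAGEA8, and no member had every ΔTUT4/7 library above WT, which 25.9% of all genes did. The summed ΔTUT4/7 count was 0 after rounding for 15 members, from 1 to 3 for 4 members, and above 3 for CT45A11P and SSX2IP. Every gene in the table had a largest count of 2 or more, so members without ΔTUT4/7 counts entered through WT alone. That favoured members lower in ΔTUT4/7. The CT45A copies also share reads, so the members are not independent. Of all genes with a summed WT count of 12 or more, 205 of 26925, or 0.761%, had a summed ΔTUT4/7 count of 0, and of the 18 members with such a WT count 13 did.

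**Figure D1:**
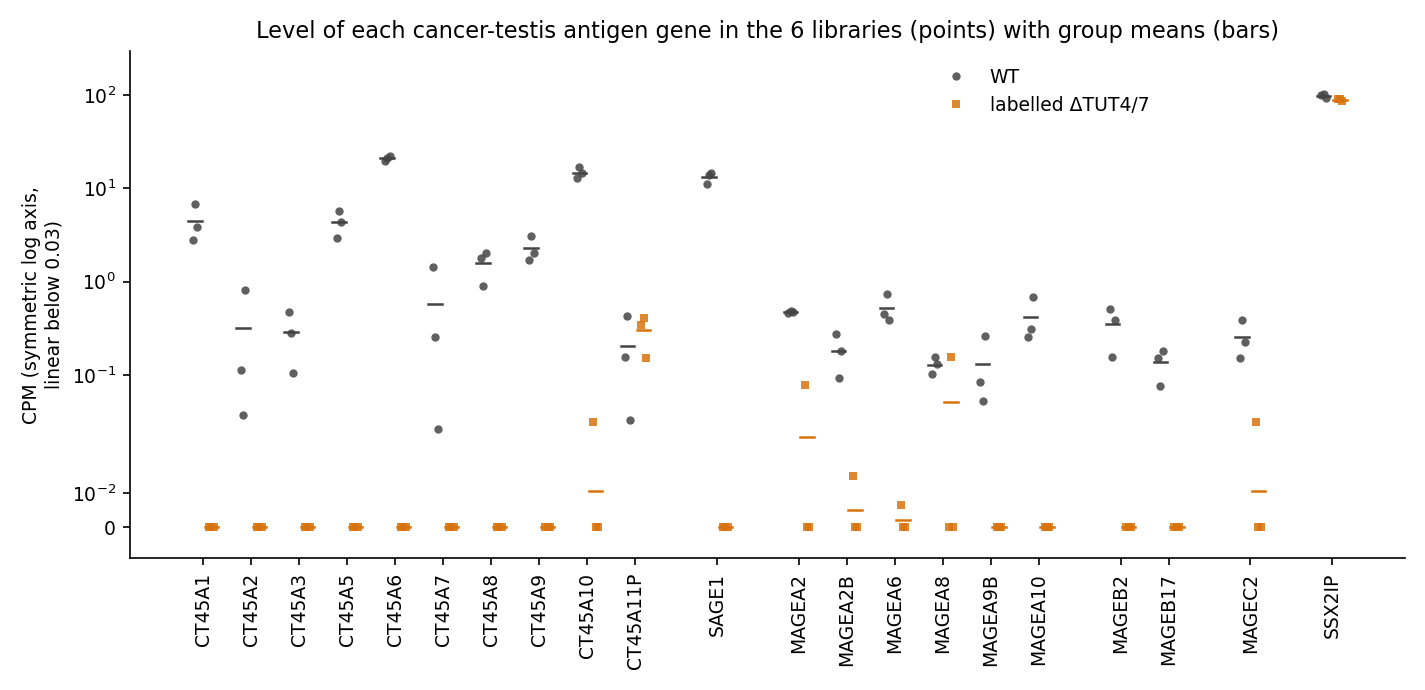
Level of each of the 21 members in CPM (symmetric log axis, linear below 0.03) in the 3 WT libraries (circles) and the 3 libraries labelled ΔTUT4/7 (squares), with short bars at the group means. The antigens sit near 0 in ΔTUT4/7, apart from CT45A11P and 1 library each of MAGEA8 and MAGEA2, while SSX2IP is close to 100 CPM in both groups.

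CT45A is the family with the most counts. Its genes lie in a tandem cluster on the long arm of chromosome X, and CT45 proteins were first described as antigens of several tumour types. CT45A6 (chromosome X, 135794685 to 135802787, minus strand) was at 19.8, 21.2 and 22.1 CPM in WT and had a count of 0 in each ΔTUT4/7 library. That is a difference of at least 502-fold, with 3 counts over the 3 libraries as the floor for a count of 0, and the fitted change was -12.02 ± 0.32 (SE) on the log2 scale (adjusted p = 2.08e-16). A fitted fold change against a group at 0 depends on the prior count and is no bound.

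CT45A10 (135881063 to 135889086, minus strand), the last CT45A copy before SAGE1, was at 13.1, 16.9 and 14.5 CPM in WT. In ΔTUT4/7 it had 1 count, in replicate 1, and none in the other libraries. The ratio of its counts, 1143 to 1, was 1060 (exact 95% interval 191 to 42100), and its log2 fold change of -9.60 ± 0.32 had an adjusted p of 5.69e-16. Without ΔTUT4/7 replicate 1 the fitted value was -11.42. The WT libraries lay far above the single count.

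The other copies were lower and varied more among WT libraries. CT45A1 (135713453 to 135723539, plus strand), at the far end of the cluster, was at 2.80, 6.86 and 3.89 CPM in WT. CT45A5 was at 2.92, 5.74 and 4.33 CPM, and CT45A9 at 1.73, 3.13 and 2.02 CPM. CT45A8 was at 1.80, 0.895 and 2.02 CPM. None of these 4 copies had a count in any ΔTUT4/7 library, so that the groups were separate, with WT at least 110-fold higher for CT45A1, 105-fold for CT45A5, 54.9-fold for CT45A9 and 37.5-fold for CT45A8. Each passed the test, with adjusted p-values between 2.91e-09 for CT45A9 and 4.35e-04 for CT45A1.

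The remaining copies other than CT45A11P had few counts. CT45A2 had estimated counts of 2.25, 0.961 and 24.8 in WT and 0 in each ΔTUT4/7 library (adjusted p = 0.0334), and the call was lost without any 1 of the ΔTUT4/7 libraries, at adjusted p-values of 0.0745, 0.0540 and 0.0568 without replicates 1, 2 and 3. CT45A7 had 28.04, 6.66 and 0.875 in WT and 0 in ΔTUT4/7, which did not pass the test (adjusted p = 0.125) until WT replicate 3 was left out (0.00117). CT45A3 had 9.20, 7.39 and 3.20 counts in WT, 0 in ΔTUT4/7, and was not tested. CT45A2 was thus highest in WT replicate 3, and CT45A7 and CT45A3 in WT replicate 1.

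The values of single copies rest on how the authors' model divided shared reads. CT45A7's transcript was 100% identical to that of CT45A6 over 1026 aligned bases, and the other copies without CT45A11P were 98.6% to 99.9% identical to it. For CT45A6, 98.6% of windows of 76 bases, the read length, also occurred in transcripts of other genes, and for CT45A7 and CT45A8 100%. The estimated counts of a copy were often not whole, while the sum over the 10 CT45A genes lay within 0.0029 of a whole number in every library. CT45A6 took 44.8%, 38.3% and 44.4% of the 9-copy sum in the WT libraries and CT45A10 29.7%, 30.6% and 29.1%. CT45A7 took 3.23%, 0.463% and 0.0572%, and CT45A2 0.258%, 0.0668% and 1.62%. The coefficient of variation over WT libraries was thus 5.45% for CT45A6 and 133% for CT45A2, against 11.1% for the sum.

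**Figure D2:**
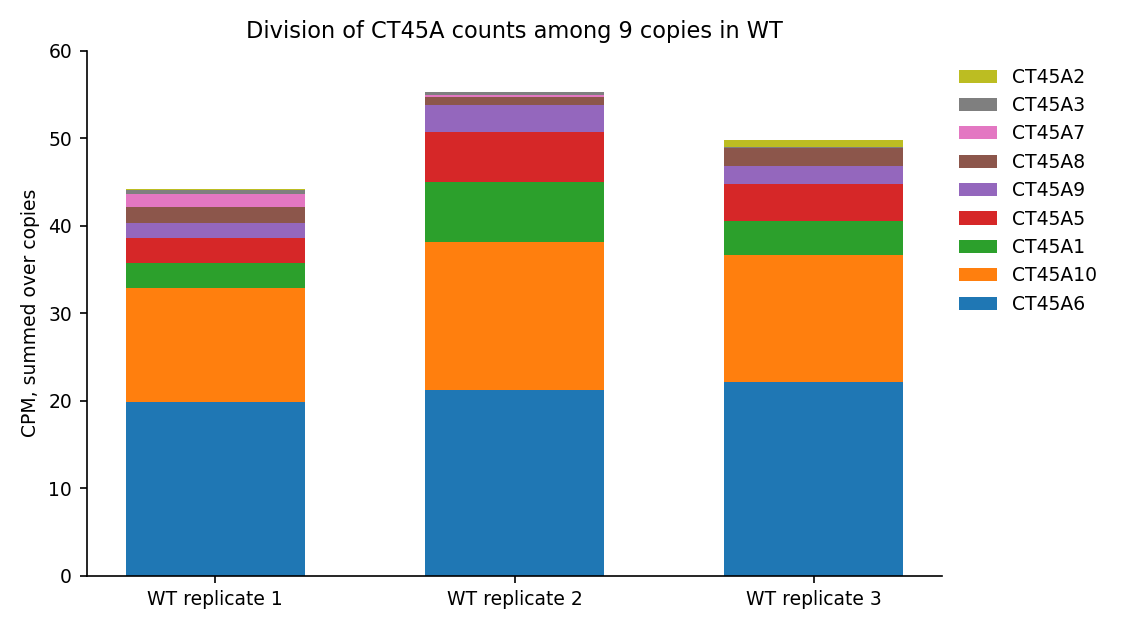
CPM of the 9 CT45A copies other than CT45A11P, stacked, in each WT library. CT45A6 and CT45A10 make up most of each bar, at 38.3% to 44.8% and 29.1% to 30.6%, while the thin segments of CT45A7, CT45A3 and CT45A2 change size between libraries.

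The family sum does not depend on that division. Over the 10 CT45A genes it was 44.4, 55.8 and 49.9 CPM in WT and 0.374, 0.412 and 0.153 CPM in ΔTUT4/7, with no overlap. The change was -7.25 ± 0.17 (SE) on the log2 scale (adjusted p = 2.37e-17), and the counts, 3851 against 23, gave a ratio of 156 (104 to 246). Of the 23 counts left in ΔTUT4/7, 22 were assigned to the pseudogene CT45A11P. Without it, a sum chosen after the values were seen, 3836 counts in WT stood against 1, a ratio of 3570 (640 to 141000), and the log2 fold change was -11.35 ± 0.24.

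CT45A11P (135942478 to 135947139, minus strand) was the exception within the cluster. It lies beyond SAGE1 and its transcript was 92.3% identical to that of CT45A6 over 779 aligned bases, and only 1.13% of its 76-base windows occurred in other genes. Its estimated counts were 3.04, 11.3 and 1.013 in WT and 11, 8 and 3 in ΔTUT4/7, so the groups overlapped. The WT over ΔTUT4/7 ratio was 0.635 with an interval of 0.306 to 1.28, and without a count filter its log2 fold change was 0.61 ± 0.69 (adjusted p = 0.507). No difference in either direction was detected. Counting error alone considered, the interval lies far below that of the summed other copies, 640 to 141000, while a small difference could be missed at this depth.

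SAGE1 (chromosome X, 135889205 to 135913061, plus strand), a single-copy antigen first described in sarcoma, gives a value free of sharing: none of its 76-base windows occurred in another gene and its counts were whole in every library. It had 221, 366 and 455 counts in WT, or 11.3, 14.1 and 14.8 CPM, and 0 in each ΔTUT4/7 library. Every WT library was thus above every ΔTUT4/7 library. WT was at least 323-fold higher, and the fitted change was -11.37 ± 0.40 (SE) on the log2 scale (adjusted p = 1.16e-14). SAGE1 and CT45A10 are head to head, on opposite strands, with 118 bases between them in the count table. The RefSeq starts of SAGE1 and of the upstream CT45A10 form lie 272 bases apart, inside the span the count table gives to SAGE1. Together, CT45A and SAGE1 held 95.8%, 96.6% and 95.7% of all antigen counts in the WT libraries.

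Per kilobase of exon, CT45A6 reached 19.7 ± 1.07 CPM per kb in WT (SD, n = 3), CT45A10 13.4 ± 1.72, SAGE1 4.14 ± 0.583 and CT45A1 3.97 ± 1.84. The last 2 lay within each other's spread. The MAGE genes were all lower, the highest being MAGEA6 at 0.285 ± 0.0998 CPM per kb. For scale, SSX2IP was at 11.5 ± 0.514 CPM per kb.

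The CT45A cluster and SAGE1 span 233.7 kb (X, 135713453 to 135947139), and genes on both sides were present in both groups. Of 12 tested neighbours within 0.5 Mb, 6 were higher in ΔTUT4/7 at FDR under 0.05, 2 were lower and 4 did not pass. Their median log2 fold change was 0.36. Over all tested genes, 28.6% were higher and 29.0% lower at this FDR. On the side of CT45A1, INTS6L, a paralog of an Integrator complex subunit, rose from 29.4 ± 0.947 to 44.2 ± 0.878 CPM (log2 0.59 ± 0.06). On the other side, MMGT1, which encodes a subunit of the membrane protein insertase EMC, rose from 147 ± 5.59 to 161 ± 5.80 CPM (log2 0.13 ± 0.05). That size is close to the -0.11 by which the median of all genes shifted with library size alone as the scaling. Farther out, FHL1, a LIM-domain gene, rose from 130 ± 5.70 to 245 ± 3.76 CPM. The largest decrease was that of the pseudogene CROCCP1, with a log2 fold change of -1.29 ± 0.37. Of the tested neighbours, then, none fell as far as the CT45A sum.

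**Figure D3:**
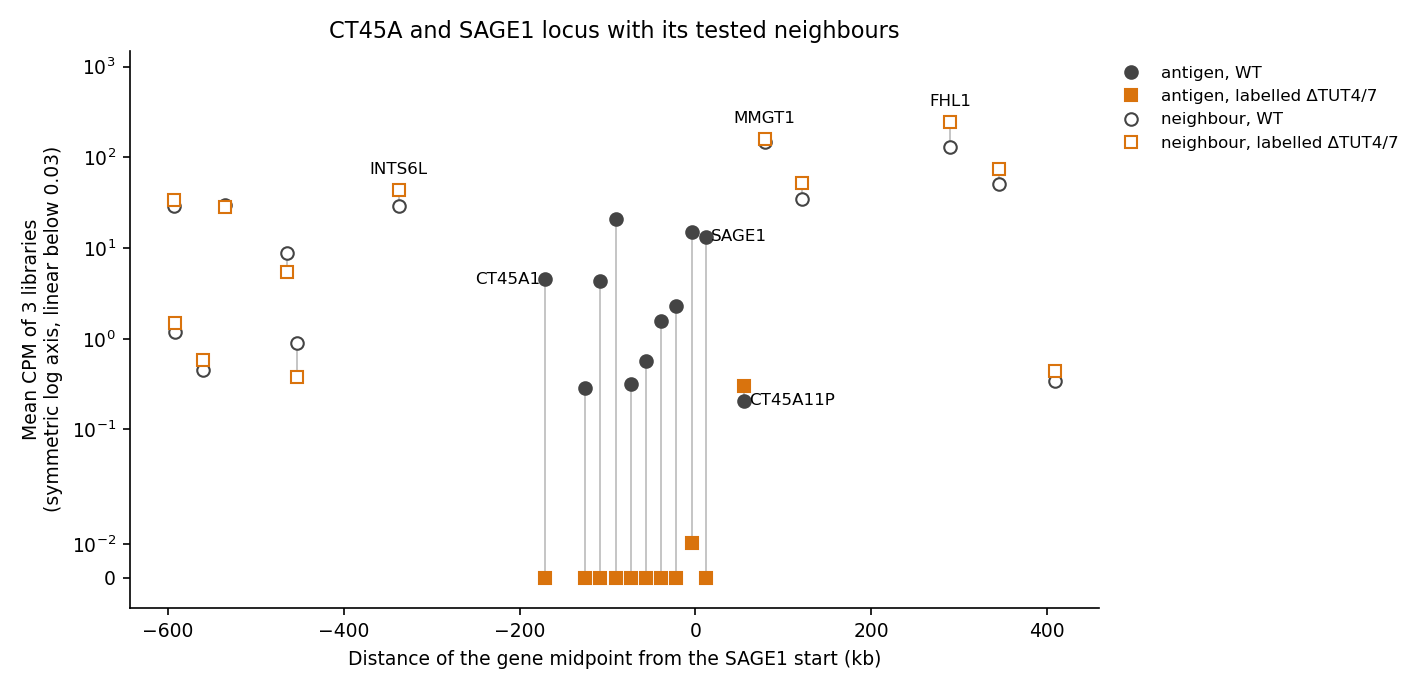
Mean CPM of 3 libraries (symmetric log axis, linear below 0.03) of CT45A genes and SAGE1 (filled) and of 12 tested neighbours within 0.5 Mb (open), in WT (circles) and ΔTUT4/7 (squares), by distance of the gene midpoint from the SAGE1 start in kb. The filled squares lie at or near 0 between CT45A1 and SAGE1, while CT45A11P and the neighbours, among them INTS6L and MMGT1, have similar levels in both groups on this axis.

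The 9 MAGE members were near the limit of detection in WT. Together they had 47.9, 63.4 and 89.5 counts in the WT libraries and 4.21, 3 and 0 in the ΔTUT4/7 libraries. No MAGE gene had more than 21 counts in a WT library or 3 in a ΔTUT4/7 library, so each value carries a large counting error.

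MAGEA proteins are adaptors of the ubiquitin ligase TRIM28, and several bind and inhibit p53. The sum of 6 MAGEA genes was 1.62, 1.82 and 2.12 CPM in WT and 0.100, 0.155 and 0 CPM in ΔTUT4/7, with no overlap. On the log2 scale the sum changed by -4.39 ± 0.45 (SE; adjusted p = 3.22e-08). The ratio of 144 to 6 counts was 22.3 (10.0 to 61.9), an interval that does not reach that of the CT45A ratio, counting error alone considered.

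MAGEA2, MAGEA6 and MAGEA10 were tested and each was called lower. MAGEA6 (152766136 to 152769747, minus strand), which directs TRIM28 to the energy sensor AMPK, had estimated counts of 8.76, 19.03 and 12 in WT and 0.210, 0 and 0 in ΔTUT4/7 (adjusted p = 7.16e-05). MAGEA10 had 5, 8 and 21 in WT and 0 in each ΔTUT4/7 library (adjusted p = 3.07e-04). MAGEA2, one of the p53-binding members, had 9.14, 12.6 and 14.5 in WT and 2.52, 0 and 0 in ΔTUT4/7 (log2 -3.40 ± 0.81, adjusted p = 0.00109), and without ΔTUT4/7 replicate 1, which held those counts, the log2 fold change was -6.49. In each of the 3, the highest ΔTUT4/7 library lay below the lowest WT library. MAGEA2 shared 93.1% of its 76-base windows with other genes and MAGEA6 39.3%, against 12.8% for MAGEA10, so the first pair is uncertain as single genes.

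The remaining MAGEA genes were not tested. MAGEA2B, a near-identical copy of MAGEA2, had 5.36, 2.41 and 5.48 estimated counts in WT and 0.482, 0 and 0 in ΔTUT4/7. MAGEA9B had 1.64, 1.36 and 8 in WT and 0 in ΔTUT4/7. MAGEA8, whose sequence is unique, had 2, 4 and 4 in WT and 0, 3 and 0 in ΔTUT4/7, which overlapped. Its ratio of 3.10 had an interval of 0.799 to 17.5, so no difference was detectable at this depth.

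MAGEB2, an X-linked gene of a family that lies apart from MAGEA on the short arm, had 10, 4 and 12 counts in WT, and MAGEB17 had 3, 2 and 5.52. Neither had a count in ΔTUT4/7. Their sum of 37 counts was at least 11.5-fold higher in WT and passed the test with an adjusted p of 1.64e-04. MAGEB17 overlaps AC078993.1, a gene on the other strand, with 2.30, 4.51 and 5.62 counts in WT and 0.806, 3 and 0 in ΔTUT4/7. Whether reads were counted by strand is not given in the sources used here, so the pair cannot be told apart.

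MAGEC2 (142202342 to 142205290, minus strand), a partner of TRIM28 known from melanoma and liver cancer, had 3, 10 and 7 counts in WT and 1, 0 and 0 in ΔTUT4/7. The groups did not overlap, and the ratio of 20 to 1 was 18.6 with an interval of 2.98 to 772. Its sequence is unique, but it was below the count filter, and without the filter it passed with an adjusted p of 0.00461. Dropping the filter for every gene gave 17 of 21 members called lower at 2-fold, against 11.5% of all genes. The 4 not called were CT45A7, CT45A11P, MAGEA8 and SSX2IP.

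The neighbours of the MAGE loci moved in both directions, as did all tested genes, of which 28.6% were higher and 29.0% lower at FDR under 0.05. Around MAGEA10, MAGEA2B, MAGEA2 and MAGEA6, 2 of 8 tested neighbours were higher and 1 lower at FDR under 0.05, with a median log2 fold change of 0.46. The higher pair were NSDHL, a cholesterol synthesis enzyme (log2 1.66 ± 0.07), and the centriole gene CETN2 (1.24 ± 0.08). The lower one was PNMA3, a paraneoplastic antigen gene, which fell from 12.5 ± 1.82 to 0.138 ± 0.0307 CPM (log2 -6.43 ± 0.24). Around MAGEA9B and MAGEA8, 7 of 15 were higher and 4 lower, with a median of 0.26 and a range of -0.86 to 1.41. Near MAGEB17, 5 of 10 were higher and 2 lower, among them GRPR, a neuropeptide receptor gene, at 1.17 ± 0.251 CPM in WT and 0.0124 ± 0.0215 CPM in ΔTUT4/7. Near MAGEB2, 1 of 6 was higher and 1, IL1RAPL1, was lower. MAGEC2 had no tested neighbour.

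SSX2IP (chromosome 1, 84643706 to 84690803, minus strand) was the only member with many counts in ΔTUT4/7. It was at 100, 102 and 93.4 CPM in WT and at 90.1, 90.4 and 86.5 CPM in ΔTUT4/7. The groups did not overlap but were close, with a log2 fold change of -0.14 ± 0.05 (SE) and an adjusted p of 0.0184. The call was lost without WT replicate 1 (adjusted p = 0.0533), WT replicate 2 (0.0564) or ΔTUT4/7 replicate 3 (0.0892). Of its 15 tested neighbours 9 were lower and 2 higher at FDR under 0.05, with a median of -0.76. Over all tested genes, 29.0% were lower and 28.6% higher.

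Further cancer-testis genes were read for comparison. Of 46 other X-linked genes listed, 7 had values here and 2 were tested. PLAC1, a placental gene, fell from 9.21 ± 1.19 to 1.42 ± 0.337 CPM (log2 -2.68 ± 0.18, adjusted p = 2.70e-11). TKTL1, a transketolase-like gene, was at 0.589 ± 0.0559 and 0.298 ± 0.153 CPM and did not pass (adjusted p = 0.0880).

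Autosomal cancer-testis genes moved in both directions. Of 31 tested, 6 were higher and 13 lower in ΔTUT4/7 at FDR under 0.05, and 12 did not pass. With library size alone as the scaling, these were 4 higher and 15 lower. The median log2 fold change was -0.06, beside -0.02 over all tested genes, and at 2-fold 4 were higher and 7 lower. PRAME, a repressor of retinoic acid receptor signalling, fell from 93.0 ± 1.51 to 22.1 ± 1.21 CPM (log2 -2.07 ± 0.06). ARMC3, an armadillo-repeat gene of testis, fell from 1.05 ± 0.249 to 0.0446 ± 0.0116 CPM. TEX14, a gene of germ cell intercellular bridges, rose from 2.33 ± 0.252 to 7.04 ± 0.591 CPM, and ACTL8, an actin-like gene, rose from 0.0957 ± 0.139 to 1.41 ± 0.122 CPM. The more abundant IGF2BP3, an RNA-binding protein gene, and TEX15 fell by 0.69 and 0.62 on the log2 scale, NUF2, a kinetochore gene, fell by 0.30, and DCAF12 rose by 0.25. The other listed genes with values were below the count filter. Among them CTCFL had 9, 5 and 7 counts in WT and 1, 0 and 0 in ΔTUT4/7, without overlap. Its ratio of 21 to 1 counts was 19.5 (3.14 to 808), and without the filter its adjusted p was 0.00319. The groups also did not overlap, with WT higher, for DKKL1 (14 against 2 counts), CALR3 (17 against 9) and OTOA (19 against 7). They overlapped for PIWIL2, LIPI, HSPB9, TMPRSS12 and CAGE1. Of all genes in the table, 28.7% had every ΔTUT4/7 library below every WT library. The interval of the CALR3 ratio, 0.741 to 4.48, included equal levels.

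MAGE genes outside the A, B and C families are expressed in many tissues and are not cancer-testis antigens. Of 7 tested, 4 were higher and 1 lower in ΔTUT4/7, or 4 higher and 2 lower with library size alone, with a median log2 fold change of 0.43. MAGED1 rose from 193 ± 14.2 to 272 ± 5.23 CPM (log2 0.49 ± 0.05), and MAGED4, MAGED4B and NSMCE3, a subunit of the SMC5/6 complex, by 0.53, 0.51 and 0.43 on that scale. MAGED4 and MAGED4B are near-identical copies, so their division is uncertain. MAGEF1 fell by 0.27.

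Of 7 ubiquitin enzymes that partner MAGE proteins, 4 were higher and 1 lower. TRIM28, the partner of MAGEA and MAGEC2 and also a heterochromatin co-repressor, rose from 212 ± 13.5 to 423 ± 18.9 CPM (log2 1.00 ± 0.05). USP7, a deubiquitinase, rose by 0.72, TRIM27 by 0.64 and HUWE1 by 0.39 on the log2 scale, and LNX1 fell by 1.10.

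Among 30 genes of DNA methylation and germline gene silencing, 17 were higher, 6 lower and 7 did not pass, or 16 higher and 9 lower with library size alone. The median log2 fold change was 0.25. EZH2, the catalytic subunit of Polycomb repressive complex 2, rose from 57.1 ± 1.83 to 115 ± 1.87 CPM (log2 1.01 ± 0.05), and the deacetylase genes HDAC1 and HDAC2 rose by 0.67 and 0.30. TET2, an enzyme that oxidizes methylcytosine, fell from 87.7 ± 0.668 to 44.5 ± 1.22 CPM (log2 -0.98 ± 0.05), and MGA, a subunit of a germline-gene repressor complex, fell by 0.36. DNMT1, the maintenance methyltransferase, was at 363 ± 22.6 and 339 ± 15.7 CPM and did not pass (adjusted p = 0.113). The other methyltransferase genes of the list moved in opposite directions. DNMT3B rose from 26.1 ± 2.24 to 39.1 ± 1.05 CPM (adjusted p = 2.88e-07), and DNMT3A fell from 61.6 ± 1.06 to 55.9 ± 0.95 CPM (adjusted p = 0.0264). Their part in the levels of the antigens was not tested.

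**Figure D4:**
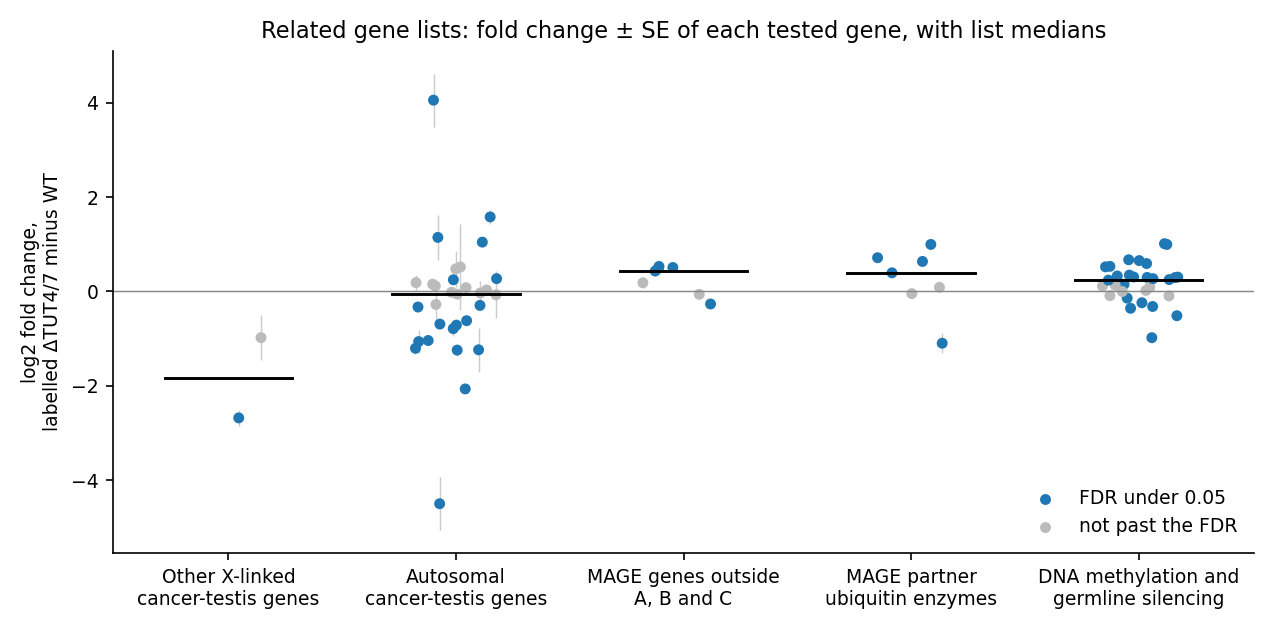
Log2 fold change (ΔTUT4/7 minus WT) ± SE of each tested gene in 5 related lists, with points past FDR 0.05 in blue, the rest in grey, and black bars at the medians. The medians of the last 4 lists lie between -0.06 and 0.43 and each list has genes on both sides of 0, while both tested genes of the first list are below it.

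Markers of other cell types were read beside these values. Of 14 germ cell markers 5 had values here and 2 were tested. Their summed level was 11.3 to 12.6 CPM in WT and 8.89 to 10.2 CPM in ΔTUT4/7. ACRV1, an acrosome gene, fell by 0.81 on the log2 scale, and SYCP3, a synaptonemal complex gene, was at 7.54 ± 0.340 and 7.26 ± 0.517 CPM. The germ cell genes DDX4, ACR and NANOS3 were below 0.3 CPM in both groups on average and below the count filter. For each, every ΔTUT4/7 library lay below every WT library, as it did for 28.7% of all genes in the table. ACR had 14 counts in WT against 3 in ΔTUT4/7, a ratio of 4.34 (1.21 to 23.6). NANOS3 had 22 against 6, a ratio of 3.41 (1.34 to 10.3). DDX4 had 10 against 3, and the interval of its ratio, 0.799 to 17.5, included equal levels. Fibroblast markers summed to 20.9 to 23.9 CPM in WT and 8.16 to 9.57 CPM in ΔTUT4/7, with 2 of 3 tested lower, and leukocyte markers to 1.71 to 3.51 and 1.98 to 2.93 CPM, with none of 1 tested past the FDR. Their part in the result was not tested.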

How the data were processed

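Total RNA of HEK 293T cells was depleted of rRNA and sequenced as paired reads of 76 bases. The authors aligned reads to hg38 with STAR 2.7.3a and counted Ensembl genes in Partek Flow 10.0.22 with its expectation-maximization model. The deposited values are estimated counts (expected counts), of which 45.2% to 50.0% per library were not whole, since reads of similar genes are divided by the model. A deposited table of the authors' own comparison (p-values, FDR, ratios, fold changes and least-squares means) was not used. The study's methods give no strand setting for counting.

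Estimated counts were rounded to whole numbers for testing (family counts were summed before rounding), genes with a largest count over 12, the study's limit, were kept, and TMM-scaled counts were tested with edgeR 4.0.16 (R 4.3.3; robust glmQLFit, glmQLFTest, no covariate), with p-values adjusted by Benjamini-Hochberg over 23952 genes. Standard errors were derived from the F statistic. A group at 0 was given a floor of 3 counts over its 3 libraries. Ratios of summed counts carry exact 95% intervals. Floors and intervals cover counting error only. Identity of transcripts and shared windows of 76 bases were computed from GENCODE release 44, and ends of genes are printed with the 1 base by which the deposited stop column runs past the annotated end taken off. The steps were tested on simulated data.

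The members and lists were chosen with earlier results of these data known. Named with values are members with a mean of 1 CPM or more in either group, SAGE1, SSX2IP and, of each list, up to 4 called genes with the largest mean and up to 4 with the largest change at 1 CPM or more, and each other member is accounted for by its counts. Some genes are named outside this rule, among them the DNMT genes, the germ cell genes and CTCFL. Neighbours are tested genes within 0.5 Mb of a locus. Those named were chosen after their values were seen. Libraries of 1 group differed by a chi-square per degree of freedom of 2.33 to 9.14, so that no pair agreed within sampling noise, and between groups by 62.2 to 102. Alternatives were library size alone, RLE scaling, DESeq2 1.42.0, limma-voom (limma 3.58.1), no count filter, a mean count of 50 or more, a block for the replicate number, leaving out single libraries, a 2-fold minimum (glmTreat) and, added after the data were seen, the CT45A sum without CT45A11P, the search for CGGATG and the overlap count over all members.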

Additional observations from a re-analysis of the deposited data

How the results depend on the processing

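Of 209 alternative values of tested fold changes, 200 kept their direction and their side of the threshold and 0 reversed. Of 93 alternative counts of calls, 89 stayed within 1.5 times the count given above. The number of members called lower at 2-fold was 11 and became 17 with no count filter and 5 with a mean count of 50 or more, which test more and fewer members. The CT45A sum ran from -11.35 to -6.99 on the log2 scale, the MAGEA sum from -4.91 to -3.94, the MAGEB sum from -6.93 to -4.41 and the sum of all antigens from -7.49 to -6.96, and each passed the FDR in every alternative run. CT45A7 was called in DESeq2 (adjusted p = 0.0225), under the replicate block (8.17e-04) and when WT replicate 3 was left out. The other X-linked list had 1 gene called, 4 with no count filter and from 1 to 2 with a library left out, the 2 coming without ΔTUT4/7 replicate 3. The cause was not tested. Same-numbered libraries did not deviate together (r = 0.05, -0.01 and -0.02 across genes, which are not independent). No pairing by number was seen, but such correlations cannot show whether samples were prepared together. With the replicate block, 12 members were called lower, and the sums of CT45A, MAGEA, MAGEB and all antigens had log2 fold changes of -7.22, -4.36, -6.69 and -7.25. Depth limits the MAGE genes, CT45A2, CT45A3, CT45A7 and CT45A11P, each under 50 counts over the WT libraries.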

Other observations

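Further genes of the other X-linked list, which were below the count filter, were singled out after their values had been seen. SPANXN3, an X-linked cancer-testis gene whose name the symbol rule does not match, went the other way from the antigens: it had a count of 0 in each WT library and was at 0.218, 0.567 and 0.358 CPM in ΔTUT4/7, which is 25 counts in all. Without the filter its log2 fold change was 6.20 ± 1.26 (adjusted p = 2.58e-04 in edgeR). CT55, which lies on the same chromosome, had 7 counts in WT and 10 in ΔTUT4/7, and the groups overlapped. NXF2 and NXF2B are near-identical X-linked copies of the NXF family of mRNA export factors, so their division is uncertain. Estimated counts in WT were 4.99, 2.49 and 3.04 for NXF2 and 5.01, 2.51 and 3.06 for NXF2B. In ΔTUT4/7 replicate 1 they were 0.499 and 0.501, and the other libraries had none. Without the filter the adjusted p-values were 0.0186 and 0.0454 in edgeR, on rounded counts.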
